A study of Homo sapiens with 20 samples.

Results

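MALAT1 and NEAT1 are 2 of the 57773 Ensembl genes counted in these LNCaP RNA-seq samples, chosen by their gene symbols after high counts and changes between conditions had been seen, so their own levels are given as a description without a test. LNCaP is a human prostate adenocarcinoma cell line. EHMT1 (also called GLP) is a histone lysine methyltransferase, and the study asked which genes follow its loss and its expression in forms that differ at neighbouring lysines. LNCaP cells were transfected for 2 days with 20 nmol/L of a nontarget siRNA pool (siNTC, 2 samples) or of a pool against EHMT1 (siEHMT1, 2 samples). LNCaP-tet-EHMT1 lines carried a tetracycline-inducible EHMT1 open reading frame that was wild type (WT) or had the substitution K450R, K451R or both (K450RK451R), and each of the 4 lines was left untreated (Veh) or given 0.25 µg/mL doxycycline (Dox) for 2 days. All stable-line groups therefore shared the endogenous EHMT1 gene and the lentiviral construct, whether a line was a clone or a pool is not given in the sources used here, and no line with an empty construct was analysed here, so doxycycline itself and the induced protein cannot be told apart. The 2 columns of each stable-line condition agreed within sampling noise (chi-square per degree of freedom 0.995 to 1.02, where counting noise alone gives about 1) and were summed and counted as 1 sample, which left 12 samples in 10 groups.

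MALAT1 and NEAT1 are long noncoding RNAs that stay in the nucleus and are made from neighbouring genes. MALAT1 collects in nuclear speckles, which store splicing factors. NEAT1 is the scaffold of paraspeckles, nuclear bodies that are built on its long isoform by proteins such as NONO and SFPQ and that hold back proteins and RNAs. The short NEAT1 isoform ends in an ordinary poly(A) tail, while MALAT1 and long NEAT1 do not: RNase P cuts both upstream of a tRNA-like element, and the end that remains is protected by a triple helix of U-rich stretches and an A-rich tract. Both RNAs are abundant in prostate cancer cells and have been studied there as partners of androgen and estrogen receptor signalling.

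On GRCh37, the build named for the mapping, NEAT1 (ENSG00000245532) spans chr11:65190245-65213011 and MALAT1 (ENSG00000251562) chr11:65265111-65275544, both on the plus strand with 52099 bases between them (GENCODE release 44). NEAT1 has 9 annotated transcripts, of which the short NEAT1-201 covers 3684 bases and the long NEAT1-202 covers 22743 bases from nearly the same start, so a count per gene does not separate the isoforms. MALAT1 has 66 annotated transcripts and an antisense gene, TALAM1, on the minus strand, not analysed here. The setting for strand in the counting is not given in the sources used here, so sense and antisense reads cannot be told apart. The final 110 bases of the long NEAT1 transcript and the 110 bases of MALAT1 that end in the same A-rich tract are shown because they hold the stretches that form the protected ends. Capitals mark the 3 runs of 8 or more bases that both windows share in the same order, with 8, 16 and 11 bases, written as DNA of the plus strand.
NEAT1 3′ end, chr11:65212902-65213011: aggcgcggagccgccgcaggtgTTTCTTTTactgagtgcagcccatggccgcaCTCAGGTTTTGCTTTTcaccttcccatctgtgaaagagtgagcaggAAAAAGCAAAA
MALAT1 3′ end, chr11:65273478-65273587: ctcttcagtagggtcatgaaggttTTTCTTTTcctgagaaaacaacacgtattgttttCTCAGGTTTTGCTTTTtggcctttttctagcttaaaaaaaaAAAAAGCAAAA
The 16-base run occurred once in each gene, and the A-rich run lay at the very end of annotated NEAT1 and 1957 bases before the annotated end of MALAT1, whose annotation goes on past the processed transcript. RefSeq's promoter table (GRCh38.p14), with 250 bases before and 50 after each start, held 2 starts for MALAT1 and matched no entry to NEAT1. Both MALAT1 promoters are printed because the levels below differ between conditions. Capitals mark GGGCGG (or CCGCCC on the other strand) in the first and TATAAA in the second.
MALAT1 promoter 1, chr11:65497488-65497787, plus strand: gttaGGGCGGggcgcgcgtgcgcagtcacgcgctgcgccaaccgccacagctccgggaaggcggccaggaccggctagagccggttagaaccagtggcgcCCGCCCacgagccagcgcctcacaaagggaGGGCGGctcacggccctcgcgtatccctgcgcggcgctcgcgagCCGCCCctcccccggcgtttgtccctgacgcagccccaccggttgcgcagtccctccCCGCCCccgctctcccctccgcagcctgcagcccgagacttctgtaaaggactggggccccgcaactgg
MALAT1 promoter 2, chr11:65498795-65499094, plus strand: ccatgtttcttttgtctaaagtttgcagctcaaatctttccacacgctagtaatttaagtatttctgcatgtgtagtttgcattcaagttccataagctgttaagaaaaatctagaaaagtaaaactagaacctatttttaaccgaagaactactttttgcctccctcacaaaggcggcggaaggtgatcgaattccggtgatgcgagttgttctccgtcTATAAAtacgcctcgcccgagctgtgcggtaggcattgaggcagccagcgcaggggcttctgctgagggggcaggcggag
The first promoter had a GC content of 73.7% with 5 copies of GGGCGG over both strands, and the second had 46.0% with 1 TATAAA, 30 bases before the start. Over the 35116 promoters of the table, 44.95% held GGGCGG and 11.5% held TATAAA on either strand, and the median GC content was 58.7%. A match in these letters is a description and not a shown binding site.

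The samples held 5593400 to 12438006 counts in the siRNA table and 8436791 to 12407739 per summed stable-line condition, and MALAT1 and NEAT1 had at least 4876 and 1512 counts in each, so counting error was small for both genes. Levels within a table are given as CPM (the count of a gene divided by the total count and multiplied by a fixed factor) scaled by TMM, a method that sets most genes equal between samples. EHMT1, the targeted gene, stood at 87.8 and 83.6 CPM in siNTC and 29.2 and 30.7 CPM in siEHMT1. In Veh it stood at 76.3 CPM in WT, 84.2 in K450R, 71.7 in K451R and 88.9 in K450RK451R. In Dox it was at 797, 842, 725 and 663 CPM in the same order of lines. K450RK451R thus had the highest EHMT1 level in Veh and the lowest in Dox. Whether the MALAT1 and NEAT1 differences follow the EHMT1 level was not tested. All 7 luminal prostate markers were counted in every sample, with KLK3 (prostate-specific antigen) at 2827 to 8246 CPM of the unscaled total. The basal marker genes KRT5 and TP63, the fibroblast genes COL1A2 and DCN and the immune genes PTPRC and CD3E had at most 1 count in any sample, and the endothelial gene CDH5 had 0. KRT14 had at most 18 counts and CD68 at most 6, while the fibroblast gene COL1A1 stood at 13.9 to 38.9 CPM in all samples. Mitochondrial genes took 22.3% to 28.2% of the counts in the siRNA samples and 8.04% to 14.4% in the stable lines, and 2 pseudogenes that resemble ribosomal RNA took 10.0% in siNTC replicate 2 and at most 1.00% elsewhere.

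Together the 2 genes took 0.106% to 0.380% of all counts. The share was highest in untreated WT cells (0.380%, 95% Wilson interval 0.377% to 0.384%), or 1 count in every 263. MALAT1 alone ranked 19th to 79th among all genes by count and NEAT1 ranked 62nd to 698th, depending on the sample. By share of all counts, MALAT1 stood in the order WT Veh (0.273%), K450R Veh (0.240%), K451R Veh (0.181%), K450RK451R Veh (0.167%), K450RK451R Dox (0.134%), WT Dox (0.127%), K450R Dox (0.127%), siEHMT1 (0.124% ± 0.062, SD, n = 2), K451R Dox (0.0896%) and siNTC (0.0857% ± 0.0021, SD, n = 2). Every untreated stable line lay above every Dox condition and above the means of both siRNA groups. The 5 highest groups were each separated from the next by more than the 95% Wilson interval, WT Dox and K450R Dox were not, and the siEHMT1 samples (0.0799% and 0.168%) spanned the levels from below siNTC to that of untreated K450RK451R.

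NEAT1 stood in the order WT Veh (0.107%), K450R Veh (0.0803%), K451R Veh (0.0649%), siEHMT1 (0.0387% ± 0.018, SD, n = 2), K450RK451R Veh (0.0333%), K450RK451R Dox (0.0270%), K450R Dox (0.0262%), siNTC (0.0255% ± 0.0022, SD, n = 2), WT Dox (0.0248%) and K451R Dox (0.0187%). The first 3 groups were set apart from each other and from the rest. K450RK451R Dox, K450R Dox and siNTC could not be ordered beyond their intervals, and neither could siNTC and WT Dox. Wilson intervals cover counting error within a library only, and reads carry no molecular identifiers, so even that error may be understated. The spread between cultures or libraries is left out, so groups set apart by these intervals are not shown to differ. The siRNA samples and the stable lines come from separate tables and cell populations, and batch and population cannot be told apart in any difference between them.

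**Figure D1:**
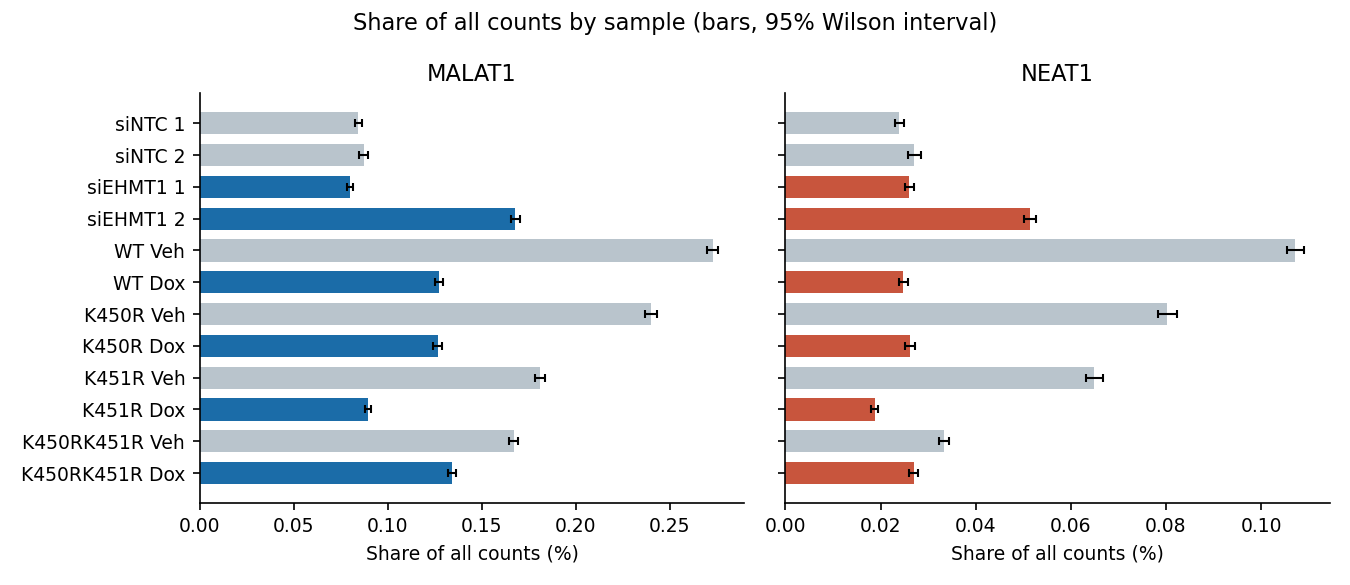
Share of all counts (percent, bars) taken by MALAT1 (left) and NEAT1 (right) in the 4 siRNA samples and the 8 stable-line conditions, with 95% Wilson intervals as error lines; grey bars are siNTC or Veh and coloured bars siEHMT1 or Dox. In WT, MALAT1 took 0.273% in Veh and 0.127% in Dox and NEAT1 0.107% and 0.0248%, while siEHMT1 replicate 2 stood above the other 3 siRNA samples for both genes.

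NEAT1 was lower in Dox than in Veh in all 4 lines, and the Dox levels lay closer together than the Veh levels. NEAT1 was at 1122 CPM in WT Veh and 253 CPM in WT Dox, which is 4.43-fold lower (log2 difference -2.15, 95% counting interval -2.21 to -2.08). K450R had 836 CPM in Veh and 268 CPM in Dox (3.11-fold lower, log2 -1.64) and K451R had 670 and 177 CPM (3.79-fold lower, log2 -1.92). K450RK451R had 335 CPM in Veh and 247 CPM in Dox, 1.36-fold lower (log2 -0.44, -0.51 to -0.37). The double mutant had the lowest NEAT1 level of the 4 lines in Veh, and in Dox it lay inside the range of the others. The mean of the 4 log2 differences was -1.54 ± 0.76 (SD, n = 4 lines), and the lowest Veh condition was 1.25-fold above the highest Dox condition.

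MALAT1 was also lower in Dox in all 4 lines. It was at 2858 CPM in WT Veh and 1300 CPM in WT Dox (2.20-fold lower, log2 -1.14, 95% counting interval -1.17 to -1.11), and K450R went from 2499 to 1294 CPM (1.93-fold lower, log2 -0.95). K451R went from 1868 to 845 CPM (2.21-fold lower, log2 -1.14), and K450RK451R from 1679 to 1229 CPM (1.37-fold lower, log2 -0.45, -0.48 to -0.42). The mean log2 difference was -0.92 ± 0.33 (SD, n = 4 lines). Each condition counts as 1 sample, so no line has a replicate check, and whether the lines differ in their response to Dox was not tested. Scaled by total counts instead of TMM, the median of all genes moved by 0.13 (log2) in K451R and 0.14 in K450RK451R, and both genes stayed lower in Dox in all 4 lines.

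**Figure D2:**
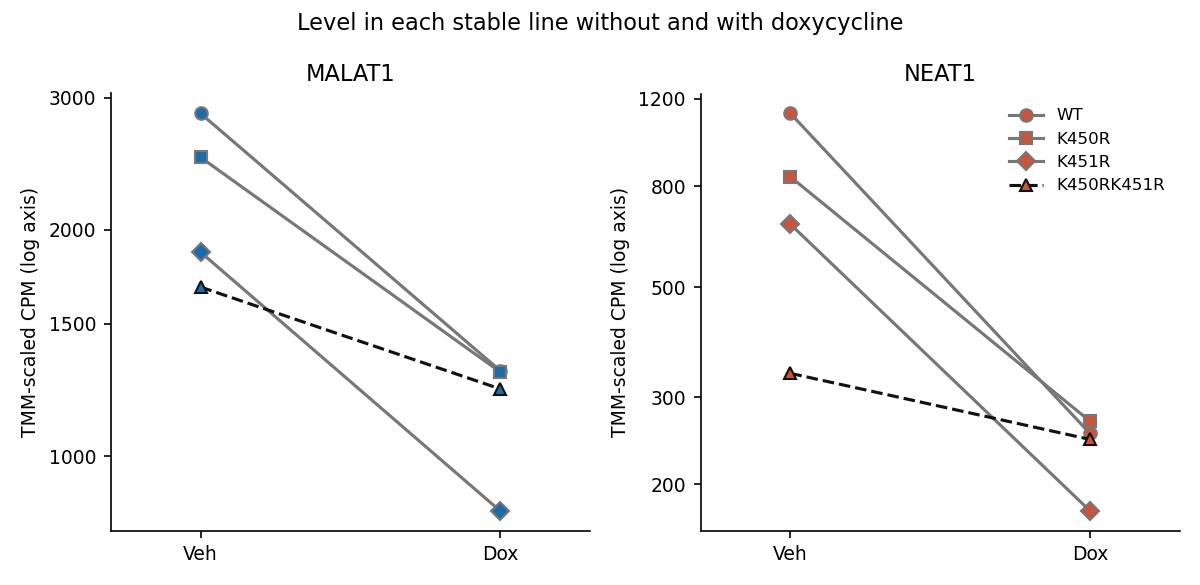
Level of MALAT1 (left) and NEAT1 (right) in TMM-scaled CPM, on log axes, in Veh and Dox; each line joins the 2 conditions of 1 stable line (1 summed sample each), with K450RK451R dashed. The 4 lines spread from 335 to 1122 CPM for NEAT1 in Veh and from 177 to 268 CPM in Dox.

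Over all 14105 genes tested, 6.45% were more than 1.5-fold lower in Dox in WT, 5.8% in K450R, 5.56% in K451R and 5.48% in K450RK451R, shares to which genes of few counts contribute. Among the 6875 genes with a mean of at least 20 CPM over the stable-line conditions, 0.553% were more than 1.5-fold lower in Dox in WT, 0.655% in K450R, 1.18% in K451R and 1.03% in K450RK451R. Both genes passed 1.5-fold in the first 3 lines and neither did in K450RK451R. NEAT1 had the lowest log2 difference of the 6875 in WT, K450R and K451R, and only 2, 5 and 4 genes lay below MALAT1 there. In K450RK451R, 192 genes lay below NEAT1 and 181 below MALAT1. By a threshold chosen after the values were seen, 5 of the 6875 genes (0.0727%) were more than 1.5-fold lower in each of WT, K450R and K451R: NEAT1, MALAT1, SH3D21, FAM193B and LPIN3. LPIN3 encodes a phosphatidate phosphatase of the lipin family, and its log2 difference was -0.73 in WT, -0.63 in K450R, -0.59 in K451R and -0.0046 in K450RK451R. FAM193B was at -0.67 in K450RK451R and SH3D21 at -0.28. Both MALAT1 and NEAT1 were among the 179 of 6875 genes (2.6%) for which every Dox condition lay below every Veh condition. Since the 2 genes were chosen with these differences known, the shares are background and no support.

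**Figure D3:**
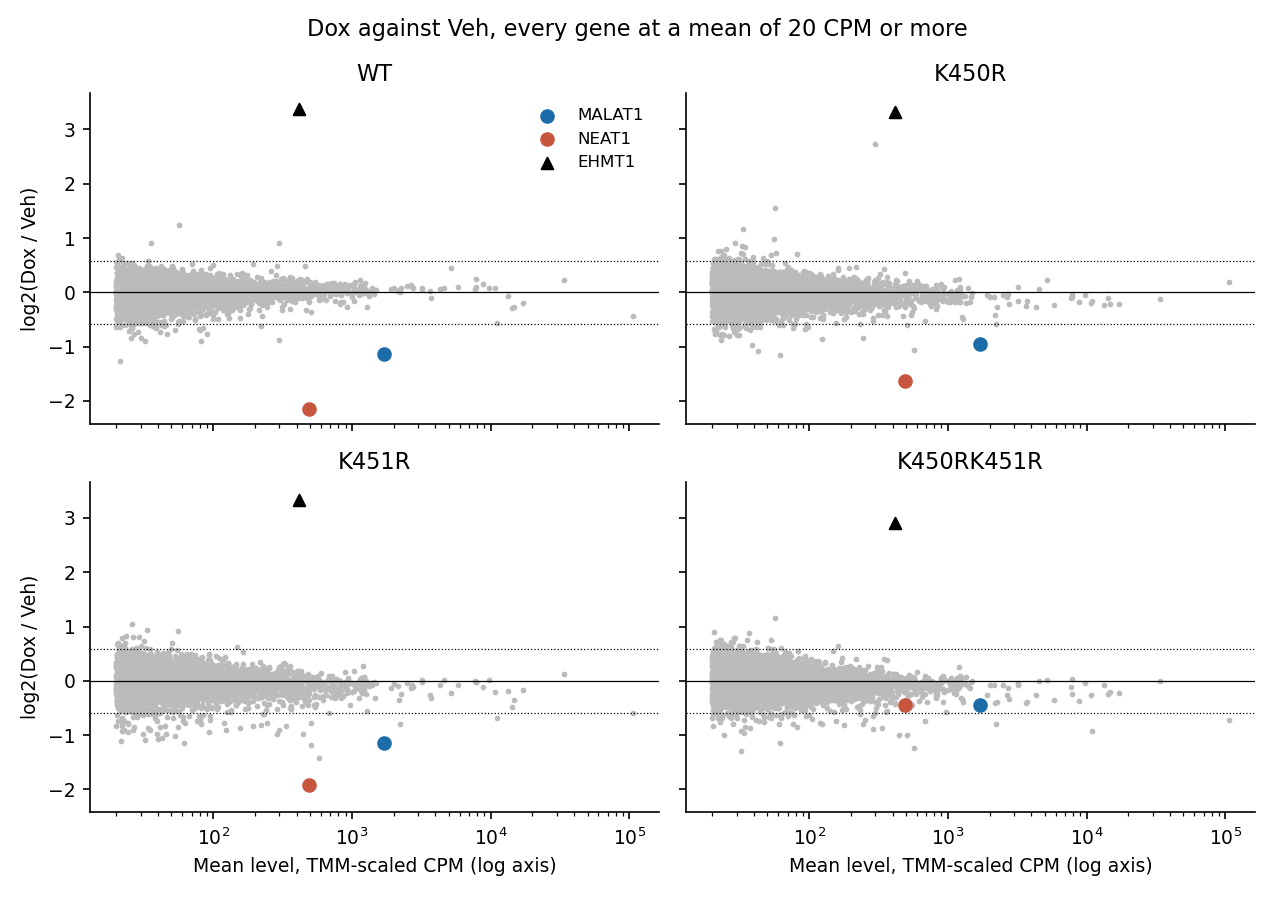
log2 ratio of Dox to Veh (vertical) against the mean TMM-scaled CPM over the 8 stable-line conditions (horizontal, log axis) for all 6875 genes at a mean of at least 20 CPM, 1 panel per line; dotted lines mark 1.5-fold. NEAT1 lies below every other gene in the WT, K450R and K451R panels and at -0.44 in K450RK451R, beside MALAT1 at -0.45, and the triangle marks the induced EHMT1.

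The untreated lines already differed. NEAT1 ranged 3.35-fold among the 4 Veh conditions, from 335 CPM in K450RK451R to 1122 CPM in WT, and 1 of the 6875 genes had a larger range there. MALAT1 ranged 1.70-fold, from 1679 to 2858 CPM, with 67 genes above it. The median gene ranged 1.19-fold. Among the Dox conditions the range was 1.52-fold for NEAT1 and 1.54-fold for MALAT1, with 412 and 360 genes above them and a median of 1.21-fold. The order of the lines in Veh (WT, K450R, K451R, K450RK451R) was the same for both genes, while in Dox K451R was lowest for both.

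The ratio of NEAT1 to MALAT1 counts within a sample needs no scaling between libraries, and it differed between conditions. NEAT1 had 39.3 counts per 100 MALAT1 counts in WT Veh, 33.4 in K450R Veh and 35.9 in K451R Veh. K450RK451R Veh stood apart at 20.0. All 4 Dox conditions lay close together, at 19.5 in WT, 20.7 in K450R, 20.9 in K451R and 20.1 in K450RK451R. The log2 change of the ratio from Veh to Dox was -1.01 in WT (95% counting half-width 0.071), -0.69 in K450R and -0.78 in K451R, and in K450RK451R it was 0.0075 with a counting half-width of 0.077. The 4 siRNA samples held 28.4 and 31.0 in siNTC and 32.6 and 30.6 in siEHMT1, between the 2 levels of the stable lines, with siEHMT1 and siNTC overlapping. Per kb of annotated exon, MALAT1 counts were 5.56 to 11.2 times those of NEAT1. If all NEAT1 reads came from the short isoform, the factor per kb would be 0.900 to 1.81. Its size therefore depends on the isoforms, which the counts do not separate. Both factors use the annotated 10434 bases of MALAT1, which go on 1957 bases past the processed end, and the shorter processed length would raise them. The order of the levels of the 2 RNAs is therefore not given.

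**Figure D4:**
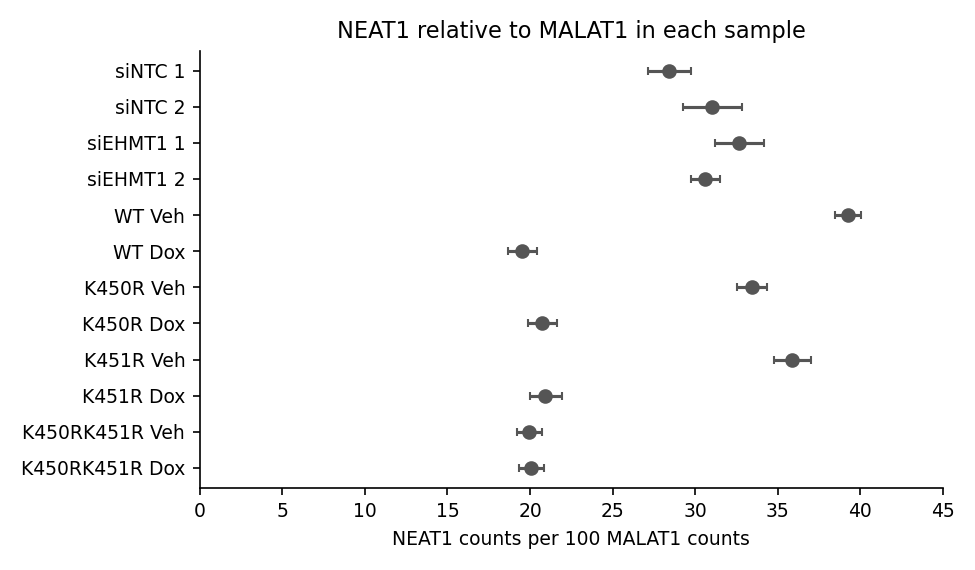
NEAT1 counts per 100 MALAT1 counts (horizontal axis) in each siRNA sample and each summed stable-line condition; error lines are 95% counting intervals. WT, K450R and K451R Veh lie at 33.4 to 39.3, the 4 Dox conditions and K450RK451R Veh at 19.5 to 20.9, and the siRNA samples at 28.4 to 32.6.

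After EHMT1 silencing, 1 of the 2 siEHMT1 samples carried the difference in both RNAs. NEAT1 was at 223 and 299 CPM in siNTC and at 257 and 511 CPM in siEHMT1. MALAT1 was at 785 and 964 CPM in siNTC and at 788 and 1667 CPM in siEHMT1. On this TMM scale, siEHMT1 replicate 1 lay inside the range of siNTC for both genes, replicate 2 lay above it, and the groups overlapped. By share of all counts, MALAT1 in siEHMT1 replicate 1 (0.0799%) lay below both siNTC samples (0.0842% and 0.0872%), so its place depends on the scaling. The fitted log2 difference was 0.57 for NEAT1 and 0.49 for MALAT1, and without siEHMT1 replicate 2 it was -0.0090 and -0.15. The 2 siEHMT1 samples differed 1.98-fold in NEAT1 and 2.12-fold in MALAT1, against 1.34-fold and 1.23-fold between the siNTC samples. Of the genes tested, 0.0551% were called higher and 0.0688% lower at an adjusted p of 0.05 (edgeR quasi-likelihood, Benjamini-Hochberg), given as background from which nothing is read about MALAT1 or NEAT1.

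Among 7255 genes with a mean of at least 20 CPM in the siRNA samples, 3 exceeded MALAT1 in the log2 difference of siEHMT1 replicate 2 over replicate 1 (1.08): POLR2A (1.13), which encodes the largest subunit of RNA polymerase II, the transcriptional cofactor TRRAP (1.11) and the nuclear noncoding RNA KCNQ1OT1 (1.11). UBR4, a ubiquitin ligase (1.02), came between MALAT1 and NEAT1 (0.99). These genes were named after their values were seen. The median log2 difference between the same 2 samples was 0.068 over the 2146 genes with more than 8 kb of annotated exon and -0.074 over the 2101 genes with less than 4 kb, and 2.00% against 0.190% of them were more than 1.5-fold higher in replicate 2. Both noncoding RNAs have exons over 8 kb. The part of transcript length, RNA quality or library in this difference was not tested. Between Veh and Dox the medians were -0.019 to 0.0033 in the 4 lines for genes over 8 kb and -0.038 to 0.034 for genes under 4 kb. The share more than 1.5-fold lower in Dox was 0.351% to 0.501% over 8 kb, and under 4 kb it was 0.672% in WT and in K450R, 2.30% in K451R and 2.16% in K450RK451R.

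The genes whose pattern over the 8 stable-line conditions was most like that of NEAT1 had smaller ranges than NEAT1. By Pearson correlation of log2 CPM among the 6875 genes, with 8 conditions that share lines and depth, the nearest to NEAT1 were LPIN3 (r = 0.988), ARPC4 (0.988), VMP1 (0.984), SH3GLB2 (0.977) and NDUFS3 (0.974). Apart from NEAT1 itself, the nearest to MALAT1 were SH3GLB2 (0.985), TMEM184A (0.974), SLC22A17 (0.972), NISCH (0.964) and ARFRP1 (0.962). MALAT1 and NEAT1 correlated at r = 0.966 with each other, with 3 genes above that value for MALAT1 and 6 for NEAT1. LPIN3, the nearest to NEAT1, stood at 57.3 CPM in WT Veh, 34.6 in WT Dox, 36.2 in K450RK451R Veh and 36.1 in K450RK451R Dox. ARPC4, a subunit of the actin-nucleating Arp2/3 complex, spanned 0.24 on the log2 scale over the 8 conditions. VMP1, a membrane protein of autophagy, spanned 0.46, and SH3GLB2 spanned 0.44. The correlations describe a shared order of conditions and not a shared size.

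Among the mRNAs of 34 protein partners of NEAT1, only HNRNPA1 passed the test, beside 2.03% of all genes tested. Nothing is read from that count about the partners, and the call was lost under 4 of 10 alternatives. Of 34 paraspeckle proteins, all tested over the 4 lines, 0 rose and 1 fell in Dox at an adjusted p under 0.05 (edgeR quasi-likelihood with line as a term), against a background of 0.553% higher and 1.47% lower among all 14105 genes tested. At an unadjusted p under 0.05 edgeR gave 12 of 34, of which 11 were lower, beside 14.2% of all genes (7.46% lower). Their median log2 difference was -0.072 beside 0.0049 for all genes. NONO, a core paraspeckle protein, was at 391, 430, 394 and 415 CPM in Veh (WT, K450R, K451R and K450RK451R) and at 405, 398, 389 and 357 CPM in Dox, and the groups overlapped. MATR3, a nuclear matrix protein found in paraspeckles, was at 339 to 377 CPM in Veh and 316 to 356 CPM in Dox (log2 -0.13, adjusted p = 0.296 by edgeR). HNRNPF, a splicing regulator, was at 274 to 298 CPM in Veh and 266 to 310 CPM in Dox (log2 0.015). HNRNPA1, an RNA-binding protein of splicing, was the 1 that fell, from 43.2, 38.2, 40.2 and 30.3 CPM in Veh to 33.1, 32.2, 30.9 and 22.0 CPM in Dox (log2 -0.37, adjusted p = 0.0221 by edgeR). That call was lost by DESeq2 (adjusted p = 0.0753) and without K450R, K451R or K450RK451R, where the adjusted p from edgeR was 0.0627 to 0.130. As each line was left out, 0 to 2 of the 34 were called, with 2 without WT and without K450RK451R. HNRNPA1 has processed pseudogenes that could share its reads.

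Nuclear speckle proteins, which share the compartment of MALAT1, were lower in Dox as a list median, at -0.16 over the 24 genes. By the edgeR call, 3 of 24 fell and 0 rose, beside 1.47% and 0.553% of all genes tested. Most speckle genes are well expressed, and among the 6547 protein-coding genes with a mean of at least 20 CPM, 2.31% fell. At an unadjusted p under 0.05, 13 of 24 were lower by edgeR and 0 higher, beside 7.46% of all genes lower. DDX39B, an RNA helicase of splicing and mRNA export, was at 52.1, 45.6, 44.6 and 40.8 CPM in Veh and 39.6, 33.2, 26.8 and 30.8 CPM in Dox, with no overlap (log2 -0.50, adjusted p = 0.00112 by edgeR). SRRM2, a scaffold protein of speckles, was at 183, 180, 160 and 204 CPM in Veh and 155, 154, 126 and 151 CPM in Dox, again with no overlap (log2 -0.31, adjusted p = 0.00239 by edgeR). PNN, a speckle protein bound to splicing complexes, fell from 94.2, 89.7, 90.1 and 71.0 CPM to 84.0, 68.2, 72.0 and 62.9 CPM (log2 -0.26, adjusted p = 0.0302 by edgeR). Without WT, 8 of the 24 were called, beside 3.32% of all genes in that fit. The calls of DDX39B and SRRM2 held under all 10 alternatives run, and that of PNN was lost by DESeq2 (adjusted p = 0.0984) and without K450R or K451R (0.218 and 0.204 by edgeR). The most abundant members, the spliceosome proteins PRPF8 and SF3B1 and the splicing cofactor THRAP3, had log2 differences of -0.19, -0.20 and -0.037 and did not pass the test (adjusted p = 0.107, 0.0772 and 0.855 by edgeR). In the double mutant, where MALAT1 and NEAT1 moved least, the log2 difference was -0.44 for SRRM2, -0.40 for DDX39B and -0.17 for PNN. PNN was at -0.17 in WT, -0.40 in K450R and -0.32 in K451R. Whether these genes differ between lines was not tested.

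The machinery of 3′ end processing and nuclear RNA turnover gave 1 call. Of 22 genes tested from a list of 23, 1 fell and 0 rose in Dox, beside 1.47% and 0.553% of all genes tested. The median log2 difference was 0.011. RPPH1, the RNA subunit of RNase P, was the most abundant at 29238 to 36165 CPM in Veh and 31518 to 41798 CPM in Dox (log2 0.061, adjusted p = 0.676 by edgeR). CPSF3L, the catalytic subunit of the Integrator complex, and METTL16, which binds the triple helix of MALAT1, had log2 differences of -0.098 and -0.085 with adjusted p values of 0.562 and 0.649 by edgeR. PABPN1, the nuclear poly(A)-binding protein, fell from 27.8, 24.2, 22.5 and 23.5 CPM in Veh to 17.8, 17.3, 17.5 and 19.1 CPM in Dox (log2 -0.44, adjusted p = 0.0256 by edgeR). It lost that call by DESeq2 (0.0880) and without WT, K450R or K451R (0.0955, 0.142 and 0.0828 by edgeR).

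Among other noncoding RNAs, SNHG1 and RN7SK passed the test. Of 22 listed, 16 were tested over the lines, 2 fell and 0 rose, beside 1.47% and 0.553% of all genes tested. The median log2 difference was -0.097. SNHG1, a host transcript of small nucleolar RNAs, was at 223, 198, 193 and 146 CPM in Veh and 160, 134, 105 and 87.8 CPM in Dox (log2 -0.66, adjusted p = 1.75e-07 by edgeR), and it fell in K450RK451R as well (log2 -0.73). RN7SK, the RNA that holds the elongation factor P-TEFb inactive, was at 16238 to 20184 CPM in Veh and 14404 to 17630 CPM in Dox (log2 -0.20, adjusted p = 0.0286 by edgeR), a call lost with upper-quartile scaling (0.0550) and without K450R, K451R or K450RK451R (0.184 to 0.242 by edgeR). TERC, the RNA of telomerase, and LINC00657, also known as NORAD, had log2 differences of 0.00049 and 0.14 and did not pass the test. With MALAT1 and NEAT1 left out, 51 genes annotated as lncRNA had a mean of at least 20 CPM. Their median log2 difference was between -0.023 and 0.0041 in the 4 lines. In Dox 1 of them was called higher and 4 lower, or 7.84% lower beside 2.31% of the 6547 protein-coding genes at that level. Over all 840 lncRNA genes tested, 2 were called higher and 8 lower. That is 0.952% lower beside 1.47% of the 11507 protein-coding genes tested, so the order of the 2 gene types depends on the level chosen. A total RNA library also counts unspliced and short RNAs, whose recovery can differ between samples.

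Of 8 transcription factors that have been reported to act on NEAT1, 7 were tested. In Dox 1 fell and 0 rose, beside 1.47% and 0.553% of all genes tested, and the median log2 difference was 0.010. RELA, a subunit of NF-kappaB, was at 167, 146, 125 and 125 CPM in Veh and 142, 109, 95.5 and 91.7 CPM in Dox (log2 -0.37, adjusted p = 0.00040 by edgeR), with a call under all 10 alternatives. The log2 difference of RELA was -0.23 in WT, -0.42 in K450R, -0.39 in K451R and -0.44 in K450RK451R. The values of the mutant lines lay close together, and whether the lines differ was not tested. STAT3, a factor of cytokine signalling, had a log2 difference of -0.095 and did not pass the test (adjusted p = 0.488 by edgeR).

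After EHMT1 silencing, 0 genes of the 5 lists passed an adjusted p of 0.05 by edgeR, and 0 did so by DESeq2 or limma-voom. Of all genes tested, edgeR called only 0.124%, so a lack of calls in short lists says little about them. At an unadjusted p under 0.05, edgeR gave 4 of 34 paraspeckle, 2 of 24 speckle, 3 of 22 processing, 1 of 17 noncoding and 0 of 7 transcription factor genes, beside 9.14% of all genes tested. The list medians lay between -0.034 and 0.094 on the log2 scale, beside -0.0022 for all genes. Without siEHMT1 replicate 1, 2 paraspeckle, 4 speckle and 2 noncoding genes were called, beside 1.56% of all genes in that fit, and without siEHMT1 replicate 2, 1 speckle gene was, beside 0.801%. In siEHMT1 replicate 2, the sample with the high MALAT1 and NEAT1 levels, SRRM2 was at 244 CPM and DDX39B at 45.8 CPM. The other 3 samples stood lower, at 146 to 180 and 26.2 to 29.2 CPM. PNN went the other way, with 36.4 CPM in siEHMT1 replicate 2 and 47.3 CPM in replicate 1, against 59.5 and 41.3 CPM in siNTC. Speckle genes thus did not move together in that sample.

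Among the genes around the locus, RELA alone was called in Dox by edgeR. Of 34 genes annotated within 250 kb of MALAT1 or NEAT1, 21 were tested over the lines, with a median log2 difference of -0.035. Of these, 0 were higher and 1 lower, beside 0.553% and 1.47% of all genes tested. FRMD8, 9.25 kb from NEAT1, had a log2 difference of 0.17 (adjusted p = 0.526 by edgeR). LTBP3, which binds latent TGF-beta, and SLC25A45, a mitochondrial carrier, had -0.12 and -0.11. The 1 that fell was RELA, 146 kb from MALAT1. Of the other expressed neighbours, CAPN1, POLA2, DPF2, SSSCA1, FAM89B, EHBP1L1, MAP3K11, PCNXL3, SIPA1, KAT5 and RNASEH2C had log2 differences of -0.094 to 0.15 and none passed the test in edgeR. After EHMT1 silencing, 20 of the 34 were tested and 0 were called by edgeR, beside 0.124% of all genes tested.

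**Figure D5:**
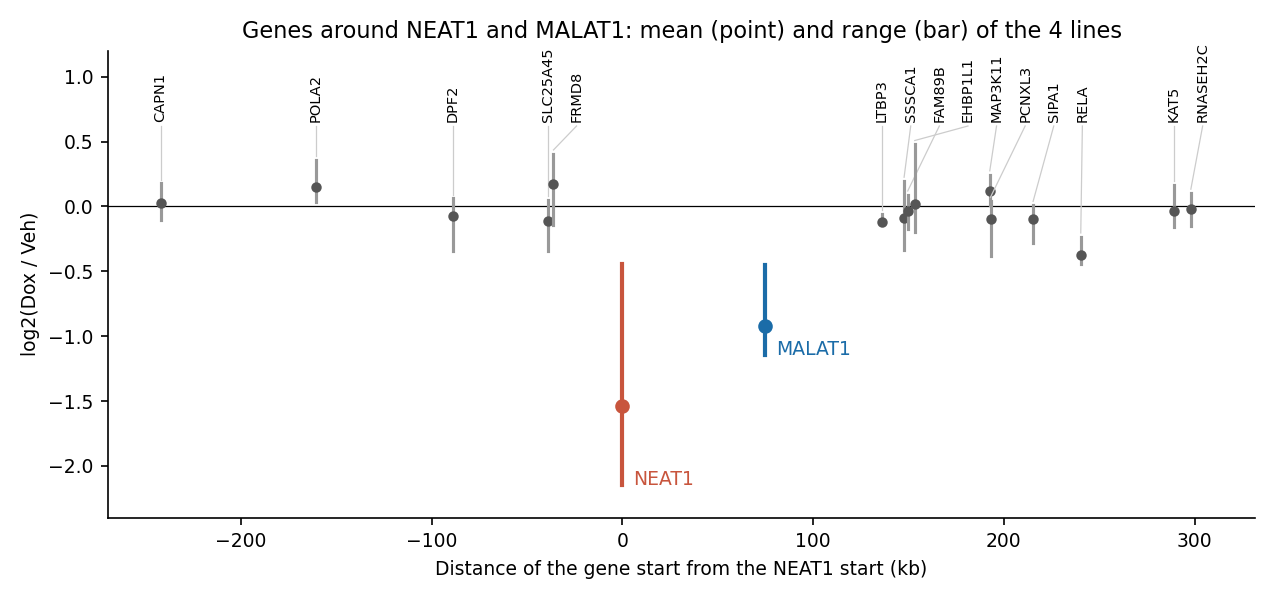
log2 ratio of Dox to Veh (vertical) for 15 genes within 250 kb of NEAT1 or MALAT1 that are counted at a mean of at least 10 CPM, and for both noncoding RNAs, against the distance of each gene start from the NEAT1 start (kb); points are means and bars the range of the 4 lines. NEAT1 (mean -1.54) and MALAT1 (mean -0.92) have lower means than the neighbours, of which RELA is lowest at -0.37.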

How the data were processed

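Total RNA was turned into stranded libraries and sequenced from a single end. The authors deposited 2 tables of raw read counts per Ensembl gene, without normalization. The submitters' processing notes name FastQC 0.11.9, STAR 2.7.2, featureCounts 1.6.4 and hg19/GRCh37; the paper states limma for quantification. The annotation release and the strand setting are not given in the sources used here.

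MALAT1, NEAT1 and the gene lists were chosen with earlier results of these data known. The 4 siRNA samples were fitted alone (14532 genes) and the 8 summed stable-line conditions together with line as a term (14105 genes), with edgeR 4.0.16 (TMM, its default filter on low counts, quasi-likelihood test, Benjamini-Hochberg) in R 4.3.3. The labels do not say that samples of a group came from separate cultures, so the siRNA p-values measure the spread between these samples. The Dox p-values measure how much the difference of Dox and Veh varies among the 4 lines, since the line term takes up the levels of the lines. The siRNA samples held 5593400 to 12438006 counts, and each column of the stable-line table held 4168199 to 6272708. The genes named are, for each list, those with an adjusted p under 0.05 in either contrast (at most 5) and the 3 of highest mean CPM, then the genes within 250 kb at a mean of at least 10 CPM, the 5 most correlated genes and EHMT1. Others are marked as chosen after their values were seen, and a few genes that the rule names are not reported here. Within-line differences and MALAT1 and NEAT1 themselves got no test. Of the identifiers, 55538 had a GENCODE release 44 position. The fits were tested on simulated counts with the same spread set for every gene, and only genes of higher expected counts were changed. For siEHMT1 against siNTC (13765 genes), 94.1% of 101 genes changed 2-fold and 100% of 99 changed 4-fold were recovered, with 7 unchanged genes called. For Dox against Veh over the lines (14126 genes), 100% of both were recovered with 12 unchanged genes called. These rates do not cover genes of few counts or of larger spread between samples. DESeq2 1.42.0, limma-voom 3.58.1, other scalings and filters, a replicate block and leaving out each sample, column or line were run as alternatives. Figures were drawn with matplotlib 3.10.9.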

Additional observations from a re-analysis of the deposited data

Results flagged for a closer look

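The MALAT1 level in K451R Dox (845 CPM) lay far from the other 3 Dox conditions, which stood at 1229 to 1300 CPM: its gap to the nearest of them, as a part of the whole range, was 0.843, just past the 95% limit of Dixon's rule for 4 values. On the share of all counts the same measure was 0.827 and did not pass it, so the distance depends on the scaling, and it is given as a description of these 4 values. It was the only 1 of 53 sets of 4 values past that limit. Chance passes it in about 1 of 20 sets.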

How the results depend on the processing

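The direction of both RNAs in Dox was the same in each line under every scaling and after leaving out either column. Over the 4 lines the mean log2 difference ran from -1.90 to -1.33 for NEAT1 and from -1.08 to -0.85 for MALAT1 as each line was left out, and it was -1.46 and -0.84 with total counts. Within lines, total counts gave -1.10 for MALAT1 in WT, -1.79 for NEAT1 and -1.02 for MALAT1 in K451R, and -0.31 for both in K450RK451R. A total without both RNAs, the mitochondrial genes and the rRNA-like pseudogenes gave -0.90 in K450R, -1.08 in K451R and -0.38 in K450RK451R for MALAT1. Leaving out either column put NEAT1 in K450RK451R between -0.52 and -0.37. The siRNA difference rested on 1 sample: as each sample was left out it ran from -0.0090 to 0.98 for NEAT1 and from -0.15 to 0.93 for MALAT1, lowest without siEHMT1 replicate 2. Without mitochondrial genes and rRNA-like pseudogenes in the total, the shares were 0.100% to 0.314% for MALAT1, 0.0209% to 0.123% for NEAT1 and 0.121% to 0.437% for both.

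Over all genes, 18 were called for siEHMT1 (8 higher, 10 lower), 109 with no filter, 42 to 237 as each sample was left out, 8 higher and 6 lower with upper-quartile scaling, 2 and 10 with DESeq2 and 9 and 6 with limma-voom. With 1 sample left in a group, that sample is assumed to vary like the others. For Dox, 286 were called (78 higher, 208 lower), 140 by DESeq2 (23 higher, 117 lower), 97 to 472 as each line was left out, lowest without K451R and highest without WT. The siRNA samples share only a number (correlation of the deviations of same-numbered samples -0.0023 over 14532 genes), and with that number as a replicate block 99 genes were called and the log2 difference was 0.49 for NEAT1 and 0.40 for MALAT1. Keeping the 16 stable-line columns apart with their number used as a replicate block called 1867 genes, because columns that differ only by counting noise then count as replicates; for MALAT1 and NEAT1 themselves, where this setting was added after the data were seen, it gave -0.92 and -1.55. The cause of the other shifts was not tested. Low depth was no limit for either RNA.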
